A study of Mus musculus with 2 samples.

Results

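The Npr3 Serpine2 Nkd2 fibroblasts were 822 of 8215 fibroblast-type cells kept from a single-cell RNA library of mouse kidney labelled sham. They were the top 10% of those cells by a score over 7 transcripts, Ptn, Npr3, Serpine2, Nkd2, Il34, Ltbp2 and Sema3d. The score of a cell was the mean over the 7 genes of the natural log of 1 plus its unique molecular identifiers (UMIs) per 10000. A cell was kept when it held 2000 UMIs or more, at most 10% mitochondrial transcripts, 3 or more of Col1a1, Col1a2, Col3a1, Dcn, Pdgfra and Pdgfrb, and no more than 1 of Pecam1, Ptprc, Epcam, Tyrobp and Umod. The other 7393 kept cells of the same library are the cells they are set against. All cells were sorted from kidneys of FVBN mice as positive for PDGF receptors alpha and beta, surface proteins of stromal cells. The series holds 1 library 10 days after unilateral ureteral obstruction (UUO), a ligation model of kidney fibrosis, with 1291 barcodes, and 1 library from a sham operation with 10812 barcodes. No age, sex, reporter or number of animals is given for either library in the labels used here.

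Fibroblasts of the kidney interstitium make the collagens and proteoglycans between the tubules, and in fibrosis some of them turn into contractile, matrix-producing myofibroblasts. The score genes come from different signalling systems. Npr3 encodes the receptor that takes up and clears natriuretic peptides, Nkd2 an intracellular protein that binds Dishevelled and dampens WNT signalling, and Serpine2 a secreted inhibitor of thrombin and plasminogen activators. Ptn encodes the heparin-binding growth factor pleiotrophin, Il34 a ligand of the macrophage receptor CSF1R, Ltbp2 an elastic-fibre protein of the LTBP family, and Sema3d a secreted guidance cue.

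Several facts of the libraries bear on every value. With 1 library per label, cells are not replicates, no test was made, and all intervals are 95% intervals that cover counting error only. The members held 7634278 UMIs with a median of 9459.5 per cell, and the other kept cells 65471961 with a median of 8647. The median share of mitochondrial transcripts was 1.89% in members and 2.13% in the other kept cells. Both Xist and Y-linked transcripts occurred among the kept cells, and the libraries shared 16 barcodes, 1 of them of a member. Injury transcripts in part ran against the labels. Spp1, encoding osteopontin, stood at 237 counts per 1000000 UMIs (CPM) in the 635 kept cells labelled UUO, against 8951 CPM in the kept cells labelled sham outside the members, and Timp1 at 61.4 against 622 CPM. Postn, encoding periostin, stood at 130 against 79.3 CPM. Libraries are therefore named as labelled, and differences between them are not read as results of the operation.

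The members were the upper end of one continuous range of scores. The lowest member scored 1.24965 and the highest cell outside 1.24962, and 259 kept cells lay within 0.05 of that boundary. Member scores had a median of 1.45 and reached 2.39, and the other kept cells had a median of 0.58. Because the 7 genes chose the cells, their levels in members are given as a description. A median of 5 of the 7 genes was detected in members and of 2 in the other kept cells. All 7 were detected in 118 members, and 663 members (80.7%) had at least 5, against 578 of the other kept cells (7.82%). Nkd2 and Npr3 occurred together in 532 members (64.7%, 61.3 to 68.0) and in 678 other kept cells (9.17%, 8.52 to 9.85).

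**Figure D1:**
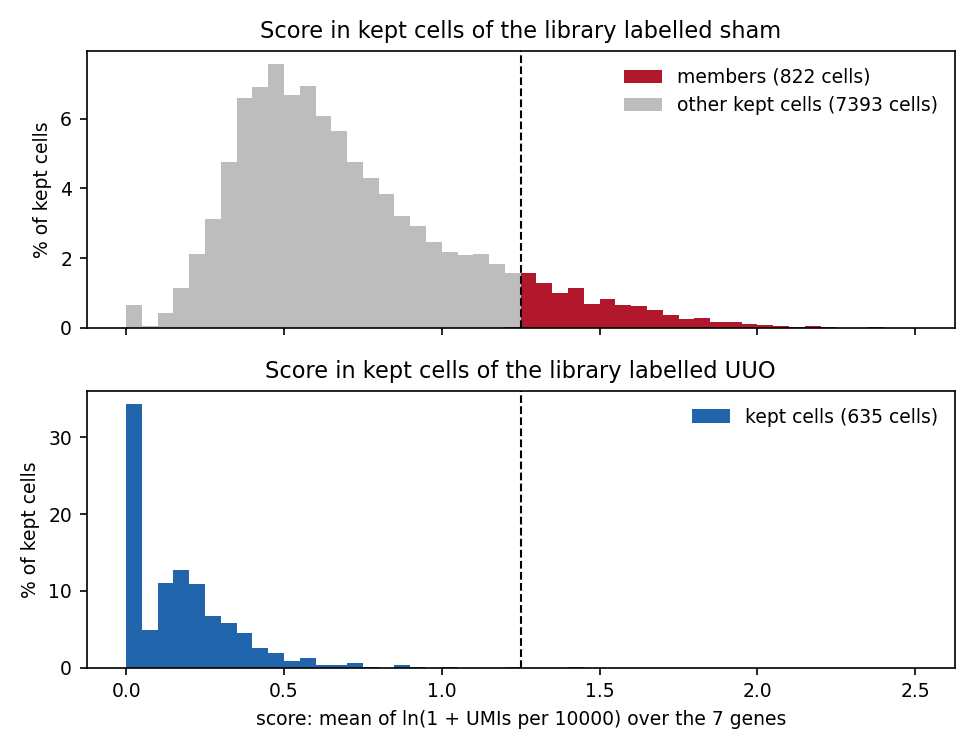
Share of kept cells (%, vertical axis) by score (horizontal axis) in the libraries labelled sham (top, members in red and other kept cells in grey) and UUO (bottom, blue); the dashed line is the lowest member's score of 1.25. The members form the right tail with no gap before it, and 1 of 635 kept cells labelled UUO reached the line.

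The fibroblast label held in part. Members carried collagen and PDGF receptor transcripts and few transcripts of other cell types, but their Dcn and Lum transcripts were low. The 8 fibroblast markers summed to 7973 CPM in members and 12274 CPM in the other kept cells, with a median of 6 and 7 detected per cell. Col1a2 was close in both, at 2352 CPM in members and 2519 CPM in the other kept cells, and so was Pdgfrb at 284 and 291 CPM. Pdgfra was at 152 and 242 CPM, Col3a1 at 1973 and 3688 CPM and Dcn at 1124 and 2788 CPM. Only Dcn and Lum among the 8 were 2-fold or more lower in members. All 6 genes of the cell filter took part in choosing the kept cells.

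The summed markers of other cell types were below the level of the other kept cells in members, except for the Schwann list. The 8 macrophage and dendritic markers summed to 197 CPM in members and 425 CPM in the other kept cells, the 7 endothelial markers to 367 and 421 CPM, and the 9 pericyte and smooth muscle markers to 319 and 380 CPM. Most of the pericyte and smooth muscle sum in members was Des, at 258 CPM against 190 CPM in the other kept cells. Cspg4 was also higher in members, while Ren1 and Rgs5 were lower. The 5 erythroid markers summed to 19.1 and 215 CPM. Schwann markers stood at 2.60 and 2.29 CPM, with Sox10 at 0 in members. The 6 lymphoid markers summed to 4.34 and 9.88 CPM, with Cd3g, Trbc2 and Cd79a at 0 counts in members, Cd3e at 2.88 and 3.56 CPM and Ms4a1 at 1.05 and 0.321 CPM, from 8 and 21 counts. Alas2 of erythroid cells and Upk3b of mesothelial cells were also at 0 counts in members, and Lrrn4 was at 0 in both groups. Pecam1, Cdh5, Kdr and Tie1, which define endothelium, were each under 4 CPM in members. Most of the endothelial sum came from Emcn, at 228 CPM in members and 203 CPM in the other kept cells, and Plvap, at 114 and 131 CPM.

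Each score gene was next read in cells chosen without it. The top 10% of kept cells by the other 6 genes again had 822 cells, 77.5 to 88.9% of them members. In each of the 7 choices the gene left out was 2-fold or more higher in the chosen cells. The 7 genes were put together with earlier results of these data known. Their rise together is therefore a description and no separate check. Npr3 stood at 168 CPM in cells chosen by the other 6 genes and at 30.5 CPM in the remaining kept cells, a ratio of 5.50 (5.13 to 5.90). Ptn stood at 667 and 183 CPM (3.66-fold, 3.54 to 3.78) and Il34 at 107 and 30.8 CPM (3.49-fold, 3.21 to 3.78). The ratios of Sema3d, Ltbp2, Serpine2 and Nkd2 lay between 2.58 and 2.90. At full depth Serpine2 was detected in all members, 98.6% of the other kept cells and 93.5% of 77 endothelial cells of the library (median depth 3496 UMIs). With cells thinned to 2000 UMIs it was in 99.8%, 87.8% and 82.9%. Its level was 5462 CPM in cells chosen without it and 2045 CPM in the remaining kept cells. Nkd2 was detected in 77.3% (74.2 to 80.1) of cells chosen without it, in 49.4% (48.3 to 50.6) of the remaining kept cells and in 14.3% of endothelial cells. The Npr3 gene shares its locus with the model Gm5144 on the other strand, at 9.56 CPM in members and 1.45 CPM in the other kept cells. The sources used here do not state whether counting was stranded.

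Nkd2, a gene of the score, and Spp1, the highest gene outside it, are shown here by their promoters, because the WNT and TGF-beta systems recur below. Nkd2 lies on the minus strand of mouse chromosome 13 (mm10, 73818534 to 73847631) and Spp1 on the plus strand of chromosome 5 (104435118 to 104441050). The windows run from 250 bases before the start to 50 after it and come from RefSeq on GRCm38.p6, chr13:73847582-73847881 (minus) and chr5:104434861-104435160 (plus). Capitals mark CAGACA, the SMAD core motif of the TGF-beta pathway, found here on the opposite strand as TGTCTG.
Nkd2: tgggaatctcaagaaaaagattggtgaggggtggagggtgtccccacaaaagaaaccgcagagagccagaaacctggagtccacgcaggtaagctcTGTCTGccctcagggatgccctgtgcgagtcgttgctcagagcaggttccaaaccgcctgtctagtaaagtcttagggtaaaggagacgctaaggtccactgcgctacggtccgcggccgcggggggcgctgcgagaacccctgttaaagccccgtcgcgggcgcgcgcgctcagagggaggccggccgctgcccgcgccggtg
Spp1: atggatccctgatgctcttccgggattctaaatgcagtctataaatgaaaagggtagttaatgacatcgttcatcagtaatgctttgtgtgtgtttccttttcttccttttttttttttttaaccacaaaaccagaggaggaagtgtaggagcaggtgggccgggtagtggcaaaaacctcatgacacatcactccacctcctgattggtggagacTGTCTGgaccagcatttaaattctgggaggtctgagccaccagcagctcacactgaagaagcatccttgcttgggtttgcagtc
The motif, searched on both strands, was in both windows and in the Sema3d window, and in 21% of all 32851 promoter windows of that table. It was not in the windows of Ptn, Npr3, Serpine2 and Ltbp2, nor in a second Spp1 window (chr5:104435942-104436241, plus). Il34 was not searched. CTTTGA, a core of the TCF and LEF factors of the WNT pathway, was in neither window and in 16% of all. These letters are a description of the windows and say nothing on binding.

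Outside the score genes Spp1 had the highest log2 ratio of the named genes, and the genes after it had varied functions. Of 8569 genes at 10 CPM or more in either group, 49 were 2-fold or more higher in members, 0.572%, and 179 were 2-fold or more lower, 2.09%. These counts use log2 ratios after adding 5 CPM, whose median over all genes was -0.07. Without the 7 score genes, 42 of 8562 genes were higher, 0.491%. Spp1 stood at 44785 CPM in members and 8951 CPM in the other kept cells, a 5.003-fold ratio (4.98 to 5.02). Its spread among members was wide, with quartiles of 65.8, 252 and 644 UMIs per 10000, against 13.6, 19.9 and 48.6 in the other kept cells. The upper quartile of the other kept cells lay below the lower quartile of the members. Spp1 was also detected in all 77 endothelial cells, at 1856.5 CPM (1702 to 2021), so detection of Spp1 did not separate cells. Its level was higher in members but had no clear break at their boundary. The tenth of kept cells next below the members by score stood at 27658 CPM, and the tenth below that at 15250 CPM.

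Slc12a2, encoding a sodium-potassium-chloride cotransporter, stood at 105 CPM in members and 24.6 CPM in the other kept cells (4.26-fold, 3.91 to 4.64), and was detected in 43.3% of members, 14.3% of the other kept cells and 16.9% of endothelial cells. Cd34, a sialomucin of endothelial and adventitial cells, stood at 149 and 36.6 CPM (4.08-fold, 3.80 to 4.38), and Pi16, a peptidase inhibitor of adventitial fibroblasts, at 198 and 81.5 CPM (2.43-fold, 2.30 to 2.58). A Cd34 UMI was in 41.8% (38.5 to 45.3) of members, 13.3% (12.6 to 14.1) of the other kept cells and 89.6% of endothelial cells, whereas Pecam1 was in 2.92% (1.88 to 4.31), 7.20% (6.62 to 7.81) and 87.0%. With each cell thinned to 2000 UMIs, Cd34 was in 20.4% of members, 5.96% of the other kept cells and 84.2% of endothelial cells. Its log2 ratio of 1.89 was 1.23 with cells thinned before scoring and 2.57 among cells that held none of the 5 excluded markers, Pecam1 included. Cpe, encoding carboxypeptidase E of prohormone processing, stood at 219 CPM in members and 70.1 CPM in the other kept cells. Piezo2, a mechanically gated ion channel, stood at 71.8 and 24.0 CPM, and Btnl2, a butyrophilin-like surface protein, at 75.3 and 22.2 CPM.

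The transcription regulators Lmo2 and Mef2c stood at 66.8 and 72.0 CPM in members, against 24.1 and 27.4 CPM in the other kept cells. Both were also endothelial transcripts in this library, at 357 and 259 CPM in the 77 endothelial cells; the part of endothelial RNA in these values was not tested. The remaining genes of the 12 highest were Cyp51 of sterol synthesis at 107 and 45.7 CPM, Bpgm at 86.3 and 36.2 CPM and Lmcd1 at 106 and 46.1 CPM, in members and other kept cells. Lmo2, Mef2c, Cyp51, Bpgm and Lmcd1 were under 2-fold in at least 1 alternative setting, with lowest log2 ratios between 0.79 and 0.96.

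Among genes with 50 CPM and 50 counts or more in the higher group, outside the marker lists of other cell types, the 12 lowest in members were Meg3, Cxcl12, Ccl21a, Efemp1, Smoc2, Alx1, Ifitm1, Sfrp1, Igfbp3, Ccl7, Acta2 and Heph. Cxcl12, the chemokine that binds CXCR4, stood at 97.1 CPM in members and 579 CPM in the other kept cells, 5.97-fold (5.55 to 6.42) lower in members, and was detected in 46.6% of members, 76.4% of the other kept cells and 23.4% of endothelial cells. Smoc2, a matricellular calcium-binding protein, stood at 235 and 1016 CPM, and the homeobox gene Alx1 at 105 and 454 CPM. Sfrp1, a secreted WNT inhibitor, stood at 256 and 916 CPM and Acta2, smooth muscle actin, at 458 and 1600 CPM. Ifitm1 stood at 231 and 841 CPM, Igfbp3 at 71.1 and 263 CPM, Efemp1 at 9.69 and 60.9 CPM and Heph at 19.9 and 84.2 CPM. Meg3, a long non-coding RNA, stood at 3.01 and 52.4 CPM and was in 2.55% of members and 5.60% of the other kept cells, and over the alternative settings its log2 ratio ran from -3.73 to -1.65. Ccl21a stood at 7.07 and 50.7 CPM, although it was detected in close shares of cells, 11.7% of members, 12.1% of the other kept cells and 15.6% of endothelial cells. Ccl21a and Igfbp3 were far higher in the 77 endothelial cells, at 3850 CPM (3625 to 4084) and 2368 CPM (2193 to 2553). Endothelial markers were mixed. Pecam1, a gene of the cell filter, was lower in members, at 3.41 CPM against 17.7 CPM in the other kept cells. Emcn was at 228 and 203 CPM and Plvap at 114 and 131 CPM in the same order. The part of endothelial RNA in the Ccl21a and Igfbp3 values was not tested. Ccl7 stood at 13.2 and 58.6 CPM. Of the other top 10% groups described below, that for Ptx3, C3 and Sfrp4 was highest in Meg3, Ccl21a and Ccl7. These genes stood there at 368, 357 and 266 CPM.

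**Figure D2:**
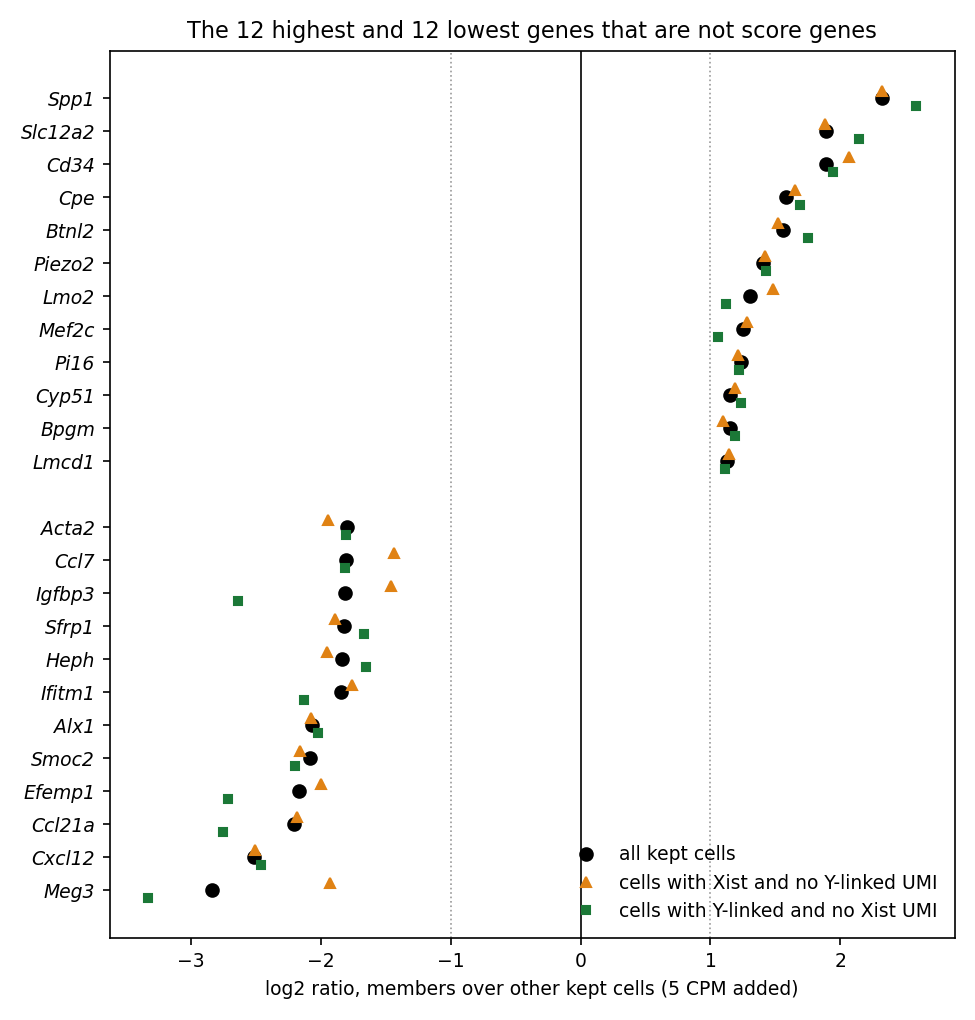
Log2 ratio of members over other kept cells with 5 CPM added (horizontal axis) for the 12 highest and 12 lowest genes outside the score, in all kept cells (black circles), cells with Xist and no Y-linked UMI (orange triangles) and cells with Y-linked and no Xist UMI (green squares); dotted lines mark 2-fold. Spp1 leads at 2.32 and Meg3 is lowest at -2.84; the coloured sets are subsets of the cells that chose the genes.

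The WNT genes did not differ as a block. Nkd2, the intracellular inhibitor in the score, was the single gene 2-fold or more higher of 16 measured intracellular WNT regulators and targets, and none was 2-fold lower. Its paralog Nkd1 stood at 189 CPM in members and 256 CPM in the other kept cells, a log2 ratio of -0.43. Axin2, a common target of the pathway, stood at 11.8 and 12.4 CPM, and Ctnnb1, encoding beta-catenin, at 161 and 154 CPM. Of 12 measured ligands, receptors and R-spondins, Wnt5a was 2-fold or more lower, at 18.6 CPM in members and 50.7 CPM in the other kept cells, though its log2 ratio of -1.24 was -0.87 in an alternative setting. The receptor gene Fzd1 stood at 471 and 321 CPM, and Wls, needed for WNT secretion, at 311 and 208 CPM. The secreted inhibitors were low in members, with 3 of 7 measured genes 2-fold or more lower, none higher and a median log2 ratio of -0.98. Sfrp4 stood at 3.01 CPM in members and 43.7 CPM in the other kept cells and Sfrp2 at 1.83 and 17.0 CPM, while Frzb stood at 250 and 465 CPM and Dkk3 at 160 and 198 CPM.

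The families around the other score genes mostly stayed within 2-fold. In the natriuretic peptide system the clearance receptor gene Npr3 was high in members by the choice of cells. Nppc encodes a ligand of that receptor, C-type natriuretic peptide. It stood at 3.27 CPM in members and 31.2 CPM in the other kept cells, 9.53-fold (6.44 to 14.8) lower in members. Low Nppc was not particular to members. Nppc was at 3.76 CPM in the top 10% for Clca3a1 and Agtr1a described below. In the top 10% for Nppc, Gpm6a and Alx1, which it helped to choose, it was at 213 CPM. Nppc was detected in 2.55% of members, 6.05% of the other kept cells and 1.30% of endothelial cells, so few cells carried it in either group, and its log2 ratio ran from -2.91 to -1.14 over the alternative settings. Pde3a, Pde5a, Prkg1 and Furin lay between -0.23 and 0.22 on the log2 scale, and Npr1 and Npr2, the signalling receptors, were under 10 CPM in both groups. Midkine, the relative of pleiotrophin encoded by Mdk, stood at 640 CPM in members and 850 CPM in the other kept cells. Of the 11 measured genes of the list of both factors and their receptors without Ptn, Mdk included, none was 2-fold higher or lower. Csf1, the second ligand of CSF1R, stood at 27.0 and 37.7 CPM beside Il34 in the score. Il6 stood at 77.9 and 133 CPM. No neuropilin, plexin or other semaphorin of 8 measured passed 2-fold. Serpina3n and Serpinf1 were the serpins 2-fold or more lower, at 19.3 and 82.1 CPM in members and 55.1 and 198 CPM in the other kept cells, and both were within 2-fold in an alternative setting, at -0.80 and -0.90.

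TGF-beta ligands and receptors were close between the groups. None of 21 measured genes passed 2-fold, and the list median was 0.07 on the log2 scale. The highest were Tgfb1, the main ligand, at 412 CPM in members and 242 CPM in the other kept cells, and Itgb5, an integrin chain that can take part in its activation, at 417 and 246 CPM. Thbs1, another activator, stood at 405 and 245 CPM. Among the elastic-fibre genes Ltbp2 in the score was the only one 2-fold higher of 18 measured, and 6 were 2-fold or more lower, namely Efemp1, Fbln1, Mfap4, Ltbp1, Fbln5 and Mfap5. Ltbp1, which holds latent TGF-beta, stood at 19.6 CPM in members and 58.1 CPM in the other kept cells, and Fbln5 at 234 and 566 CPM. Fbn1, encoding fibrillin-1, stood at 201 and 276 CPM.

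Interstitial matrix transcripts were low to level in members. None of 6 measured fibrillar collagens passed 2-fold, with Col1a1 at 1903 CPM in members and 2342 CPM in the other kept cells. Col8a1, a short-chain collagen, stood at 491 and 268 CPM, against 131 and 250 CPM for Col6a1. Of 9 proteoglycans, Dcn, Lum and Srgn were 2-fold or more lower, Dcn and Lum by as little as -0.86 and -0.76 on the log2 scale in an alternative setting, while Bgn, encoding biglycan, was level at 4297 and 4311 CPM. Spp1 was the single gene 2-fold higher of 17 matricellular genes, and Postn, Tnxb and Matn2 were 2-fold or more lower, Tnxb with a range of -1.79 to -0.54 over the alternative settings. Postn stood at 20.04 CPM in members and 79.3 CPM in the other kept cells. None of 22 proteases and TIMPs passed 2-fold, although Timp1, an inhibitor of matrix metalloproteinases, stood at 1238 CPM in members and 622 CPM in the other kept cells, a log2 ratio of 0.99. The 16 basement membrane genes had a median of -0.19, with 1 of them, Nid2, 2-fold lower at -1.09, and at -0.72 in an alternative setting.

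Contractile transcripts were low in members. Of 18 measured genes 7 were 2-fold or more lower and none higher, with a median log2 ratio of -0.64. Besides Acta2, the regulatory light chain Myl9 stood at 243 CPM in members and 805 CPM in the other kept cells, Tpm2 at 165 and 414 CPM and Tpm1 at 714 and 1506 CPM. Tagln, encoding transgelin, stood at 850 and 1278 CPM and did not pass 2-fold. The rarer smooth muscle genes Cnn1, Myh11 and Actg2 were each under 3 CPM in members, against 14.0, 12.8 and 22.0 CPM in the other kept cells. Pericyte genes were mixed. Ren1, encoding renin, stood at 9.30 and 80.2 CPM and Rgs5 at 7.07 and 40.9 CPM, while Cspg4, encoding NG2, stood at 12.1 and 3.89 CPM.

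Chemokines had the lowest median of the 34 lists, -1.25, with 9 of 17 measured genes 2-fold or more lower and 1 higher. Ccl2, which attracts monocytes, stood at 29.5 CPM in members and 98.3 CPM in the other kept cells, Cxcl1, which attracts neutrophils, at 29.6 and 105 CPM, and Ccl11, which draws eosinophils, at 5.89 and 48.3 CPM. The 1 higher gene, Cxcl9, was detected in only 20 members (2.43%), and its log2 ratio of 1.43 was 0.42 with cells chosen without Ltbp2. Of 11 complement and pentraxin genes, C3 and Ptx3 were 2-fold or more lower, with C3 at 9.82 CPM in members and 40.2 CPM in the other kept cells. Ptx3, with 16 counts in members, ranged from -2.36 to -0.66 over the alternative settings. Of 16 measured interferon and antigen presentation genes 15 had a log2 ratio below 0, beside 66% of all genes tested. Their median was -0.22, and Ifitm1 was the only one 2-fold or more lower. B2m and Isg15 had log2 ratios of 0.01 and -0.29. Resting fibroblast genes split, with Cd34 and Pi16 higher and 7 of 14 lower, among them Smoc2, Sfrp1, Clec3b, Dpep1, Ly6a and Apod. Apod ranged from -3.35 to -0.38 over the alternative settings, and its counts were concentrated in the fifth and sixth score bins, at 53.5 and 193 CPM, against at most 17.5 CPM in the other 8.

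Among growth factor genes, 2 of 24 measured were 2-fold or more higher in members, both PDGF ligands. Pdgfa, a ligand of PDGF receptor alpha, stood at 99.2 CPM in members and 45.4 CPM in the other kept cells, a ratio of 2.18 (2.01 to 2.37), and was detected in 48.8% and 27.9% of cells and in 32.5% of endothelial cells. Pdgfc stood at 19.3 and 4.60 CPM. In an alternative setting the log2 ratios of Pdgfa and Pdgfc were as low as 0.87 and 0.67. In the other direction, 6 genes were 2-fold or more lower in members, namely Igfbp2, Igfbp3, Ntf3, Pdgfd, Pdgfrl and Igf1. Igf1 stood at 37.9 and 84.2 CPM. Of 18 vasoactive genes 5 were 2-fold or more lower, led by the endothelin receptor Ednrb at 5.11 and 34.1 CPM and by Ramp3 at 25.4 and 94.7 CPM, while Agtr1a, the angiotensin receptor, stood at 86.8 and 72.7 CPM. Ednrb and Ramp3 were at 329 and 490 CPM in the endothelial cells. The endothelial markers were mixed, with Pecam1 and Cdh5 lower in members. Emcn was at 228 CPM in members and 203 CPM in the other kept cells, and Plvap at 114 and 131 CPM. The part of endothelial RNA in the Ednrb and Ramp3 values was not tested. Among 26 stromal transcription factors only Alx1 passed 2-fold; Tcf21 stood at 355 and 392 CPM and Runx1 at 94.8 and 69.8 CPM. Of the 34 lists, 32 had a median below 0 without the score genes. Over all genes tested 66% were below 0 and the median was -0.07, so a list median below 0 does not by itself set a list apart.

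**Figure D3:**
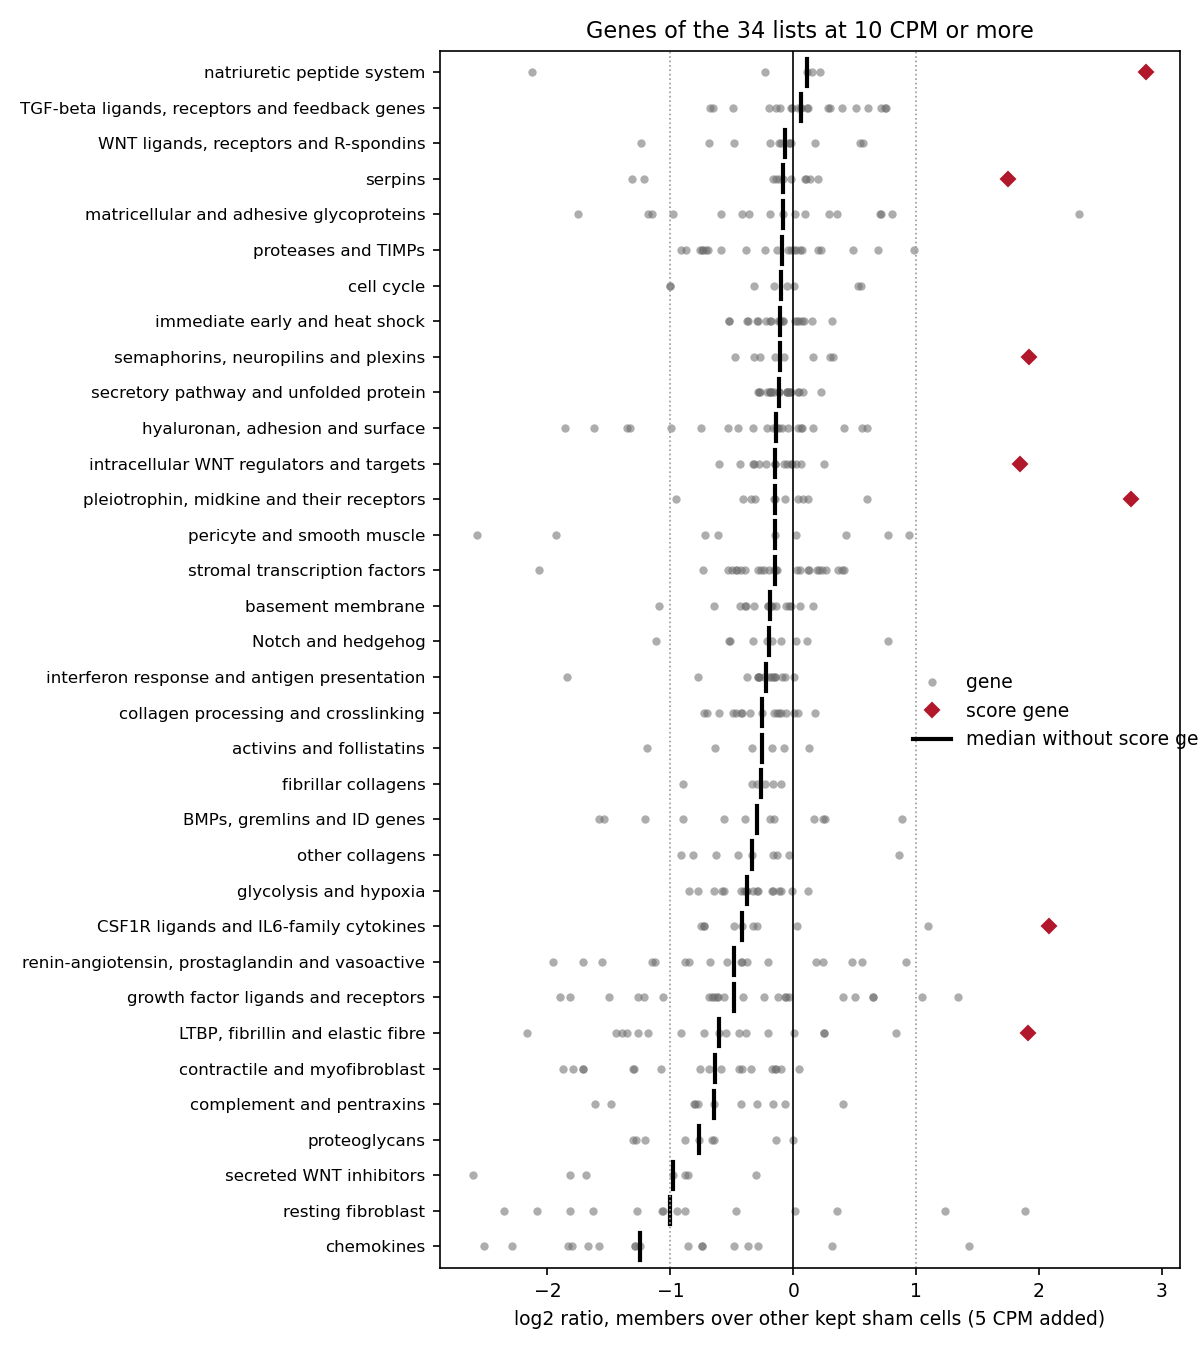
Log2 ratio of members over other kept cells with 5 CPM added (horizontal axis) for each measured gene of the 34 lists (rows, ordered by median); grey points are genes, red diamonds the score genes, black bars the medians without score genes, and dotted lines 2-fold. The chemokine, resting fibroblast and secreted WNT inhibitor lists have the lowest medians, at -1.25, -1.001 and -0.98.

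The course of the levels along the score differed between genes. Kept cells were placed in 10 bins of equal size by score, the members being the highest bin, with median depths of 6664.5 UMIs in the lowest and 9459.5 in the highest. Spp1 ran from 2966 CPM in the lowest bin through 4916 CPM in the fifth and 27658 CPM in the ninth to 44785 CPM in members. Slc12a2 was higher at 8 of the 9 steps, with 10.3 CPM in the lowest bin, 18.2 CPM in the fifth and 105 CPM in members. Cxcl12 was lower at each step, from 1110 CPM to 97.1 CPM. Acta2 and Smoc2 were highest in the second bin, at 2143 and 1564 CPM. Dcn stayed between 2704 and 3243 CPM over the lowest 8 bins and stood at 2050 CPM in the ninth and 1124 CPM in members. Pdgfc lay between 3.10 and 6.33 CPM in the lowest 9 bins and stood at 19.3 CPM in members. Cd34 had 83.7 CPM in the lowest bin, 17.3 CPM in the fifth, 62.7 CPM in the ninth and 149 CPM in members. Markers of other cell types were also highest in the lowest bin, with Pecam1 at 54.2 CPM there, 14.8 CPM in the fifth and 3.41 CPM in members, Epcam at 28.6 CPM and Tyrobp at 48.1 CPM in the lowest bin; their part in the course of Cd34 was not tested. In all, 12 of 156 named genes were higher at every step, 7 of them the score genes, and 3 were lower at every step. With cells thinned to 2000 UMIs before scoring, 1 gene was higher at every step.

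**Figure D4:**
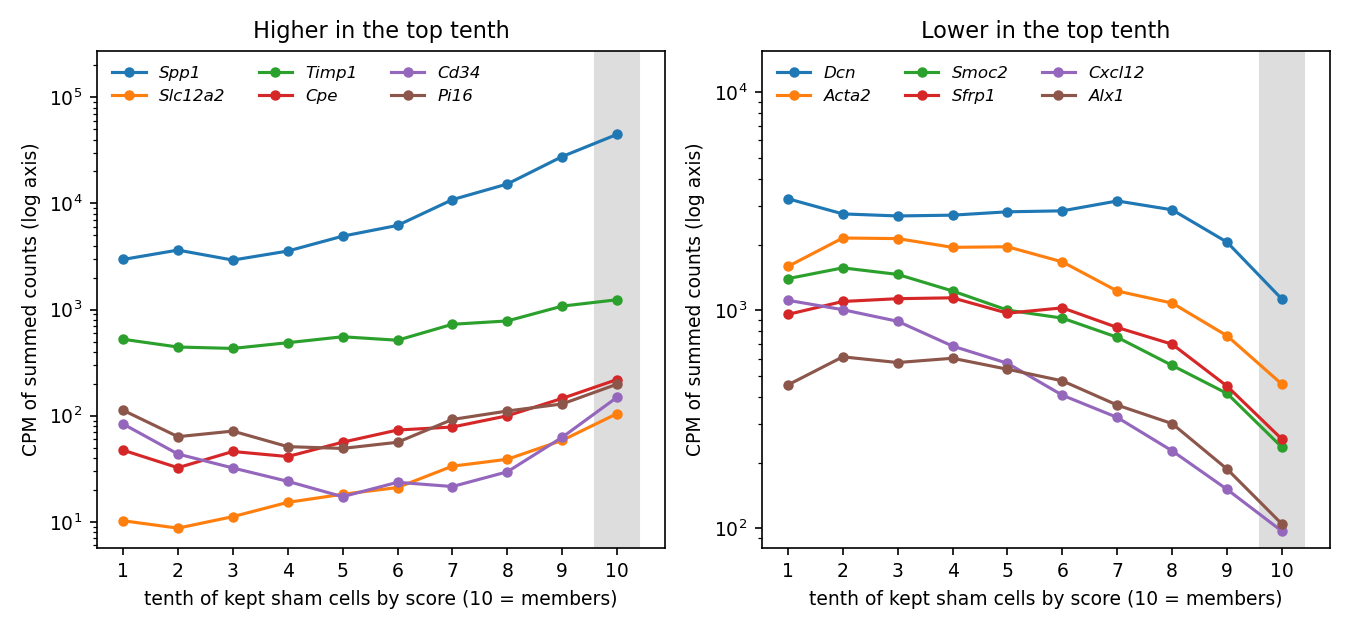
CPM of summed counts (log axis) in the 10 score bins of kept cells labelled sham, from lowest to highest (horizontal axis, members shaded), for 6 genes higher (left) and 6 lower (right) in members. Spp1 runs from 2966 to 44785 CPM and Cxcl12 from 1110 to 97.1 CPM, while Cd34 is lowest in the fifth bin at 17.3 CPM.

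The members, 10% of the kept cells, were set beside 4 other top 10% groups of the same library, each chosen by the same kind of score. They shared 49 cells with the top 10% for Clca3a1 and Agtr1a, which was 5.96% (4.44 to 7.80) of either group of 822 cells. They shared 38 cells (4.62%, 3.29 to 6.29) with the top 10% for Ptx3, C3 and Sfrp4, 10 cells (1.22%, 0.585 to 2.23) with that for Acta2, Tagln and Myl9, and 7 cells (0.852%, 0.343 to 1.75) with that for Nppc, Gpm6a and Alx1. With the top 20% by each score, 21.4% of the cells were shared with the Clca3a1 group, each group then being 20% of the kept cells. Spp1 stood at 44785 CPM in members, and at 9954, 6380, 3101 and 2272 CPM in the Ptx3, Clca3a1, Acta2 and Nppc groups without the shared cells. Slc12a2 stood at 105 CPM in members and between 11.4 and 16.6 CPM in those groups. Pi16 did not separate them, at 198 CPM in members and 231 CPM in the Ptx3 group, and Cpe stood at 219 CPM in members and 166 CPM in the Clca3a1 group. Timp1 was close in members and the Ptx3 group, at 1238 and 1091 CPM. Low Alx1 was shared with the Clca3a1 group, at 105 CPM in members and 89.6 CPM in that group. Efemp1 (9.69 and 12.2 CPM), Sfrp1 (256 and 335 CPM) and Ramp3 (25.4 and 19.3 CPM) were also low in both. Lmcd1 (106 and 95.6 CPM) and Col8a1 (491 and 527 CPM) were high in both. Postn (20.04 and 18.2 CPM), Wnt5a (18.6 and 21.8 CPM) and Meg3 (3.01 and 4.51 CPM) were low in both as well. So were Serpinf1 (82.1 and 66.3 CPM) and Serpina3n (19.3 and 18.8 CPM), while Mef2c (72.0 and 54.8 CPM) was high in both. The levels of these genes therefore did not set members apart from the Clca3a1 group. Smoc2 (235 and 686 CPM), Igfbp3 (71.1 and 441 CPM) and Ren1 (9.30 and 529 CPM) were lower in members than in that group. Cxcl12 was at 97.1 CPM in members and at 439 CPM or more in the others. In a space of 20 principal components built from 1000 variable genes without the score genes, 48.1% of the 20 nearest neighbours of members were members, against 6.25% of those of the other kept cells. The score genes were put together with earlier results of these data known. These shares are therefore a description and no separate check.

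**Figure D5:**
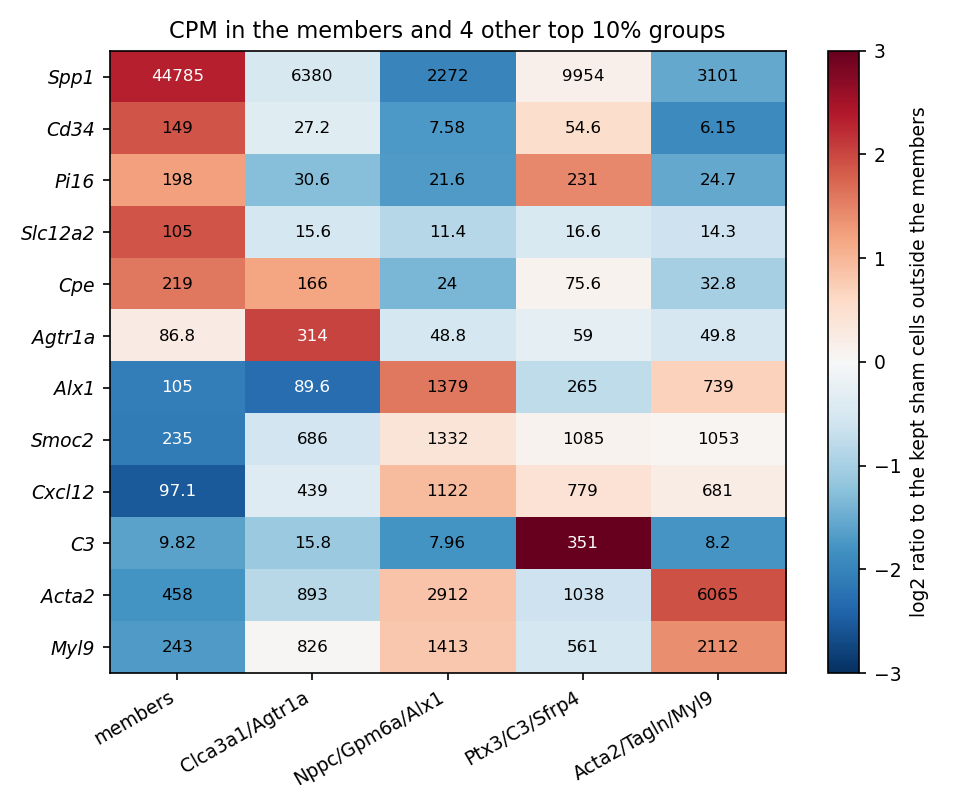
CPM (numbers) of 12 genes in members and in 4 other top 10% groups of kept cells labelled sham, each without the cells it shares with the members; colour is the log2 ratio to the kept cells outside the members with 5 CPM added. Spp1 at 44785 CPM and Slc12a2 at 105 CPM are highest in members, and Cxcl12 at 97.1 CPM is lowest in members.

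The values were also read in cells split by sex-linked transcripts. Members were 488 of 4623 kept cells with Xist and no Y-linked UMI (10.6%, 9.68 to 11.5) and 149 of 1469 with Y-linked and no Xist UMI (10.1%, 8.65 to 11.8). A further 1159 kept cells held both and 964 neither. Both sets are subsets of the cells in which the genes were called, so their directions are no separate check. Spp1 had log2 ratios of 2.32 and 2.58 in the Xist and Y-linked sets. Other genes differed more. Igfbp3 was at -1.46 in the Xist set and -2.63 in the Y-linked set, Apod at -2.90 and -0.38, and Ccl5 at -1.32 and 2.34. The ratios of Apod and Ccl5 rest on low values. In members Apod was at 1.36 CPM in the Xist set and 2.78 CPM in the Y-linked set, against 42.6 and 5.15 CPM in the other kept cells. Ccl5 was at 2.73 and 34.1 CPM in members, against 14.2 and 2.74 CPM, with 103 counts over all members.

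The library labelled UUO held almost no such cells. With the same rule, 1 of 635 kept cells reached the score of the lowest member, 0.157% (0.00399 to 0.874), and the median score was 0.15 there, against 0.62 in all kept cells labelled sham. Median depth was 6347 UMIs in the kept cells labelled UUO. Nkd2 stood at 472 CPM in members, 128 CPM in the other kept cells labelled sham and 8.23 CPM (5.79 to 11.3) in kept cells labelled UUO. Serpine2 stood at 6485, 1925 and 194 CPM in the same order of groups, Ptn at 999.7, 145 and 41.6 CPM, Npr3 at 216, 25.2 and 9.34 CPM and Ltbp2 at 145, 34.9 and 4.89 CPM. Il34 stood at 134, 27.8 and 31.6 CPM and Sema3d at 141, 33.6 and 29.6 CPM, so outside the members these 2 genes were close between the libraries. Cd34 went the other way, at 149 CPM in members and 227 CPM in kept cells labelled UUO, and Pi16 stood at 198 and 999 CPM. Library, depth and label cannot be told apart in these values. The top 10% within the library labelled UUO, 64 cells, scored 0.39 or more, a score that 82.4% of kept cells labelled sham reached. Against the other 571 kept cells of its library, 256 of 10125 genes were 2-fold or more higher (2.53%) and 366 lower (3.61%). Of the 42 genes called higher in members outside the score, 28 were measured there and 21 had the same direction, 6 of them 2-fold or more. Of the 179 called lower, 144 were measured and 94 had the same direction, 40 of them 2-fold or more. The share of all genes above or below 0 was not computed there, so the counts of direction have no background to be read against. Spp1 stood at 864 CPM in those 64 cells and 161 CPM in the other kept cells labelled UUO and Postn at 24.7 and 143 CPM, each in the direction of the members. The score genes chose these 64 cells as well and are not read in them.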

How the data were processed

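The matrices hold expected counts of molecules (UMIs) for each cell and gene, which the authors deposited without normalisation and made with alevin of Salmon 0.13.1 on mm10, per the submitters' processing notes. Libraries were of the 10x 3′ type, chemistry version 2, as labelled. In the library labelled sham 92.3% of values above 0 lay within 1e-06 of a whole number. Alevin divides UMIs that match several genes, so overlapping or near-identical genes are uncertain. The libraries held 85359332 (sham) and 6023072 (UUO) UMIs.

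Counts were summed over cells, rounded and scaled to CPM. Ratios carry exact conditional binomial intervals, shares Clopper-Pearson intervals. Log2 ratios were taken after adding 5 CPM, and genes needed 10 CPM in either group. Endothelial cells, used as background for detection, had 3 or more endothelial markers and at most 2 of the 6 filter collagens, decorin and receptors. Gene positions come from GENCODE M21. Of 699 list genes 697 were matched. No doublet caller was part of the rule; its removal was an alternative. The ratio steps were tested on simulated data.

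Named genes were the 12 with the largest and the 12 with the smallest log2 ratio, given 50 CPM and 50 counts in the higher group, without score, mitochondrial, ribosomal, Gm and Rik genes and markers of other cell types, plus up to 2 highest and 2 lowest of each list and the filter genes, Postn, Acta2, Spp1 and Timp1. Other list members named in the text, the 2 promoters and the figure genes were chosen after their values were seen. The members and the lists were chosen with earlier results of these data known. Software was Python 3.11.15, numpy 2.4.6, scipy 1.17.1, scikit-learn 1.9.0 and scanpy 1.11.5.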

Additional observations from a re-analysis of the deposited data

Results flagged for a closer look

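For 5 genes the top 10% by score in the library labelled UUO and the members went opposite ways, which drew attention to them. The difference between the libraries was not tested, and counting error alone is covered. Alx1 had a log2 ratio of 1.39 in the top 10% labelled UUO over the other kept cells of that library, against -2.07 in members over the other kept cells labelled sham. Ifitm1 had 1.12 and -1.84, and Ren1 2.65 and -2.57. Cd34 had -1.29 in the top 10% labelled UUO and 1.89 in members, and Pi16 -1.61 and 1.23. Cd34 and Pi16 were abundant in the library labelled UUO as a whole, at 227 and 999 CPM.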

How the results depend on the processing

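Of 1560 values recomputed for the 65 named genes past 2-fold under 24 alternatives, 1559 kept their direction and 1464 stayed past 2-fold. The exception was Pecam1, at 0 by construction where none of the 5 excluded markers was allowed. Adding 20 CPM left 17 genes higher and 65 lower, and requiring 50 CPM left 30 and 67, where fewer genes were tested. With totals that leave out Spp1 the median of all genes moved to -0.02. Over the alternatives the log2 ratio of Spp1 ran from 1.91 to 2.70, of Cd34 from 1.23 to 2.57, of Lmo2 from 0.80 to 1.56 and of Meg3 from -3.73 to -1.65. The count labelled UUO was 64 by definition with that library's own top 10% and 2 with both libraries thinned. Overlap with the Clca3a1, Nppc, Ptx3 and Acta2 groups was 1.22%, 0.243%, 1.22% and 0.243% of members with the top 5% and 21.4%, 3.23%, 17.1% and 6.88% with the top 20%, and 1.95% for the Nppc group after thinning. After thinning, 1 named gene was higher at each step of the score; the cause was not tested. Doublet calls took 44 members (5.35%) and 9.86% of the other kept cells. No paired analysis was possible because each label has 1 library. Overlap and score-bin alternatives and the totals without Spp1 were chosen after seeing the data. Depth limits low genes such as Nppc, with 25 counts in members.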
